A study of Bos taurus with 8 samples.

Results

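The miR-29 family is a group of microRNAs (miRNAs), short RNAs that pair with messenger RNAs through a few bases near their own 5′ end, the seed, and lower the output of those messengers. Its main members, miR-29a, miR-29b and miR-29c, share their seed and are best known for repressing genes of the extracellular matrix, among them collagens and elastin, and the DNA methyltransferases DNMT3A and DNMT3B. They are made from a pair of gene clusters that each hold a copy of miR-29b, beside miR-29a in one and beside miR-29c in the other, and they also circulate in blood plasma, in part inside exosomes, the small vesicles that cells release. The members described here were the array entries named bta-miR-29a, bta-miR-29b and bta-miR-29c, chosen by name, which are 3 of the 744 bovine miRNAs on the array. The scanner software flagged 3 of these 3 as detected on all 8 arrays, as it did 143 of the 744.

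Plasma exosomes came from Japanese Shorthorn steers about 2 years old, of which 3 grazed on pasture and 3 were housed in a free-stall barn and given cut grass, with no grain for either group. The RNA of the 3 steers of a group was pooled at 0, 1, 2 and 4 months (mo), 0 mo being the start, and each pool was put on 1 array, so that no value has a replicate error. The comparison asked how circulating miRNAs changed while the cattle grazed. Labelled RNA bound to probes on 1-colour arrays, a spot's brightness being its reading, and both labels, housed and grazing, have 1 array for each of the 4 months.

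The groups are named by the deposited sample labels, which a supplementary table and the text of the study contradict. Each array was set against each raw column of that table, and the signals of 3 of 3 members lay within 1% in 1 column for each of the 8 arrays, against at most 1 member in any other column. The 4 housed-labelled arrays matched the columns headed G, which the table's legend gives to grazing cattle. The 4 grazing-labelled arrays matched the columns headed A. The legend names H columns and no A columns, so the A columns are taken here as those of the housed cattle. The profile that the text gives to housed cattle at the start is likewise that of the grazing-labelled 0 mo array. Read by these sources, every difference between the groups below, those of other miRNAs included, has the opposite direction to the one given by the labels. The 8 arrays lay on 1 slide, with the label in columns 1 and 2 and the months in rows 1 to 4, so that place on the slide and group or month cannot be told apart.

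In RefSeq (ARS-UCD2.0), MIR29A and MIR29B-1 were neighbours on chromosome 4, and MIR29B-2 and MIR29C were neighbours on chromosome 16, with CD34 and CD46 next to them on the outer sides. Another pair, MIR29E and MIR29D, were neighbours on chromosome 16 as well. The array design, on the build UMD_3.1, placed the longest probe of bta-miR-29a at chr4:95402363-95402381 and that of bta-miR-29c at chr16:77478647-77478667. It gave the longest probe of bta-miR-29b both chr4:95402746-95402766 and chr16:77478086-77478106, so the signal of bta-miR-29b sums the products of both gene copies and cannot be split between them.

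Each member had 2 probes with 20 spots each, and the longer probe was the shorter one with 1 base added at its 3′ end. The longest probes are shown because they tell the members apart. They are complementary to the miRNA, written 5′ to 3′, with the stretches that the 3 members share in capitals.
bta-miR-29a: taaccGATTTCAgATGGTGC
bta-miR-29b: aacactGATTTCAaATGGTGC
bta-miR-29c: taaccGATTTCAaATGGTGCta
bta-miR-29d: taatcGATTTCAaATGGTGC
bta-miR-29e: aaacactGATTTCAaatgatg
The stretch ATGGTGC, which bta-miR-29e lacks, near the end of the probe that lies over the 5′ part of the miRNA, where the seed is, occurred in the longest probes of 4 of the 744 miRNAs (0.538%), 4 of which were miR-29 entries. The stretch GATTTCA occurred in 6 (0.806%), of which 5 were miR-29 entries. Counted from 1 at the 5′ end of the first probe named, the probe of bta-miR-29c differed from that of bta-miR-29a by A13G over 20 aligned bases, and from that of bta-miR-29b by T1A, A2C and C5T. The probe of bta-miR-29c thus differed from those of the other members at 1 and 3 of 20 bases, and how much each binds the RNA of another member was not tested.

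bta-miR-29d and bta-miR-29e, the other entries of the family on the array, were detected on 0 of 8 arrays. bta-miR-29d had signals from -1.11 to 0.67, the highest being 0.361 times the error estimate of its array. For bta-miR-29e they ran from -1.02 to 0.42, and the highest was 0.277 times that estimate. The probe of bta-miR-29c differed from that of bta-miR-29d by C4T only, over 20 bases, and that of bta-miR-29b from that of bta-miR-29e by G18A over 20. The probes of bta-miR-29d and bta-miR-29e, each 1 base from that of a detected member, thus read no signal above their error estimate.

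The signal of a miRNA is the background-subtracted brightness summed over its probes, on the linear scale of the scanner, with the scanner software's error estimate after ±. This estimate was between 7.12% and 8.66% of the signal for the members on every array. It is given for 1 array and does not cover differences between animals. Nor did it follow the spread of the spots. For the longer probe of bta-miR-29b it was 39.3 of a signal of 391 at housed 0 mo, and 26.3 of 262 at housed 4 mo. The SD of this probe's spots was 9.92% of their mean on the first array and 4.09% on the second. All detected miRNAs of an array summed to a signal of 45507 at the lowest, for grazing 1 mo, and of 157696 at the highest, for housed 0 mo.

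bta-miR-29a gave signals of 1023 ± 83.8, 515 ± 41.8, 352 ± 28.7 and 610 ± 49.7 at 0, 1, 2 and 4 mo on the housed-labelled arrays. On the grazing-labelled arrays it gave 282 ± 23.0, 208 ± 17.0, 492 ± 40.4 and 283 ± 23.3 at the same months. Its brightest array was thus the housed-labelled 0 mo array, and at 2 mo alone the grazing-labelled array was brighter than the one under the housed label.

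bta-miR-29b gave 475 ± 40.2, 329 ± 27.2, 180 ± 15.1 and 323 ± 27.0 at 0, 1, 2 and 4 mo on the housed-labelled arrays. Its signals on the grazing-labelled arrays were 125 ± 10.6, 146 ± 12.1, 283 ± 24.0 and 113 ± 9.80. The signals of bta-miR-29c were 430 ± 30.7, 301 ± 21.5, 201 ± 14.4 and 347 ± 24.7 on the housed-labelled arrays, and 134 ± 9.68, 110 ± 8.07, 257 ± 18.4 and 111 ± 8.08 on the grazing-labelled ones. The 3 members shared this course: each was lowest at 2 mo on the housed-labelled arrays and highest at 2 mo on the grazing-labelled ones. The summed signal of all detected miRNAs had its lowest and highest array at the same months, with 62438 at 2 mo among the housed-labelled arrays and 63558 at 2 mo among the grazing-labelled ones, so this course of the signals is also that of the arrays. Every spot of the members was well above background on every array, and 0 spots were saturated.

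Since the totals of the arrays also differed, the same values are given as shares. Of the signal that all detected miRNAs of an array sum to, the family held a share of 1.22% ± 0.0621, 1.36% ± 0.0644, 1.17% ± 0.0568 and 1.41% ± 0.0678 at 0, 1, 2 and 4 mo on the housed-labelled arrays. It held 0.945% ± 0.0473, 1.02% ± 0.0492, 1.62% ± 0.0794 and 0.981% ± 0.0513 on the grazing-labelled ones. The grazing-labelled 2 mo array thus had the highest share of the 8, and the other 3 grazing-labelled arrays lay below all 4 housed-labelled ones. A share depends on how strongly the probes bind and does not count molecules.

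The share of bta-miR-29a was 0.649%, 0.611%, 0.564% and 0.671% at 0, 1, 2 and 4 mo on the housed-labelled arrays and 0.493%, 0.457%, 0.773% and 0.547% on the grazing-labelled ones. For bta-miR-29b it was 0.301%, 0.391%, 0.289% and 0.355% on the housed-labelled arrays and 0.219%, 0.320%, 0.445% and 0.219% on the grazing-labelled ones. For bta-miR-29c it was 0.273%, 0.357%, 0.322% and 0.381% on the housed-labelled arrays and 0.233%, 0.242%, 0.404% and 0.214% on the grazing-labelled ones. Each member had its highest share on the grazing-labelled 2 mo array, at 1.69, 2.03 and 1.89 times its lowest share.

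To set arrays side by side, signals were expressed in units of the array's own 90th percentile among the 744 miRNAs, a value from 31.2 to 109. Scaled in this way, bta-miR-29a stood at 9.39 ± 0.769, 6.19 ± 0.502, 6.95 ± 0.566 and 7.40 ± 0.602 at 0, 1, 2 and 4 mo on the housed-labelled arrays, and at 6.94 ± 0.566, 6.66 ± 0.544, 8.76 ± 0.720 and 8.26 ± 0.680 on the grazing-labelled ones. The ranges of the labels overlapped, and the highest and the lowest value, 0 mo and 1 mo, were both from housed-labelled arrays.

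For bta-miR-29b the scaled levels were 4.36 ± 0.369, 3.96 ± 0.327, 3.56 ± 0.299 and 3.92 ± 0.328 on the housed-labelled arrays and 3.08 ± 0.261, 4.66 ± 0.389, 5.03 ± 0.427 and 3.31 ± 0.286 on the grazing-labelled ones. For bta-miR-29c they were 3.95 ± 0.282, 3.61 ± 0.258, 3.97 ± 0.285 and 4.20 ± 0.299 on the housed-labelled arrays and 3.28 ± 0.238, 3.53 ± 0.258, 4.58 ± 0.327 and 3.23 ± 0.236 on the grazing-labelled ones. Both were highest on the grazing-labelled 2 mo array, and their 4 values under the housed label lay within the range of the grazing-labelled ones.

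**Figure D1:**
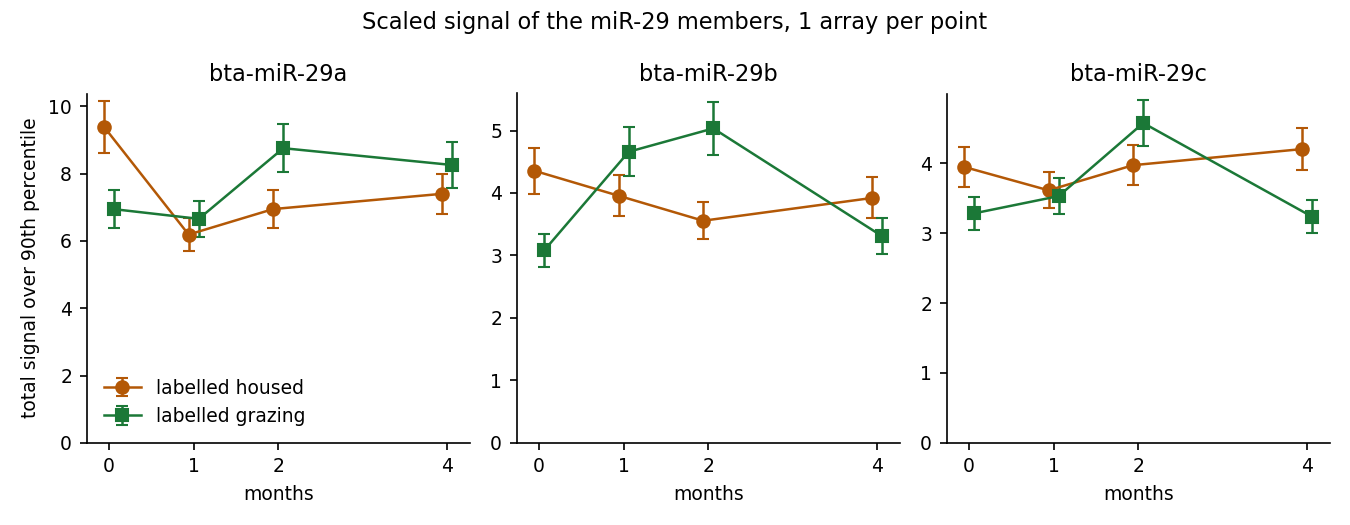
Scaled signal (total signal over the 90th percentile of the array, no unit) of each member against months, with 1 array per point, circles for housed-labelled arrays, squares for grazing-labelled arrays and bars for the scanner software's error estimate; each panel has its own vertical axis from 0. bta-miR-29a started at 9.39 under the housed label and 6.94 under the grazing label, an order that 1 of 10 other scalings and signals reversed, and for bta-miR-29b and bta-miR-29c the grazing-labelled 2 mo array was the highest, at 5.03 and 4.58, while with no scaling the housed-labelled 0 mo array was.

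In order from the lowest, the scaled levels of bta-miR-29a ran from housed 1 mo through grazing 1 mo, grazing 0 mo, housed 2 mo, housed 4 mo, grazing 4 mo and grazing 2 mo to housed 0 mo. For bta-miR-29b the order was grazing 0 mo, grazing 4 mo, housed 2 mo, housed 4 mo, housed 1 mo, housed 0 mo, grazing 1 mo and grazing 2 mo. For bta-miR-29c it was grazing 4 mo, grazing 0 mo, grazing 1 mo, housed 1 mo, housed 0 mo, housed 2 mo, housed 4 mo and grazing 2 mo. In each order, 0 of the 7 steps between neighbours exceeded the combined error estimate of the arrays. The whole range did: it was 0.60 on the log2 scale for bta-miR-29a (error estimate 0.17), 0.71 for bta-miR-29b (0.17) and 0.50 for bta-miR-29c (0.15).

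Changes are given as the log2 scaled level of an array minus that of the 0 mo array of the same label, with the combined error estimate of the 2 arrays, which lay between 0.15 and 0.17. On the housed-labelled arrays, bta-miR-29a changed by -0.60, -0.43 and -0.34 at 1, 2 and 4 mo. On the grazing-labelled ones it changed by -0.06, 0.33 and 0.25. The falls at 1 and 2 mo under the housed label and the rise at 2 mo under the grazing label had the same sign under 10 of 10 other scalings and signals, while the change at 4 mo under the housed label was above 0 under 2 of the 10 and that at 1 mo under the grazing label under 4.

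bta-miR-29b changed by -0.14, -0.29 and -0.15 at 1, 2 and 4 mo on the housed-labelled arrays and by 0.60, 0.71 and 0.10 on the grazing-labelled ones. Its rises at 1 and 2 mo under the grazing label were above 0 under 10 of 10 other scalings and signals and the rise at 4 mo under 8, and its changes under the housed label were above 0 under 3, 1 and 3 of the 10. bta-miR-29c changed by -0.13, 0.01 and 0.09 on the housed-labelled arrays and by 0.10, 0.48 and -0.02 on the grazing-labelled ones. Only its rise at 2 mo under the grazing label exceeded its error estimate, and it was above 0 under 10 of the 10.

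In all, 7 of the 18 changes of the members were larger than 2 times their error estimate: 4 of 6 for bta-miR-29a, 2 of 6 for bta-miR-29b and 1 of 6 for bta-miR-29c. Of these, 3 were falls of bta-miR-29a under the housed label, and the other 4 were rises under the grazing label, 3 of them at 2 mo. Of the 7, only the fall at 4 mo changed sign under any of the 10 other scalings and signals. How many changes of all 143 miRNAs were larger than 2 times their error estimate was not counted. The 7 of 18 therefore do not set the members apart from other miRNAs. Averaged over the 3 members, the change under the housed label was -0.29, -0.24 and -0.14 at 1, 2 and 4 mo, and that under the grazing label 0.21, 0.51 and 0.11. Under the grazing label the members lay between -0.06 and 0.60 at 1 mo, between 0.33 and 0.71 at 2 mo and between -0.02 and 0.25 at 4 mo. With this scaling 3 of 3 were thus above 0 at 2 mo only, and at 2 mo under 10 of 10 others too. Of all 143 miRNAs, 102, 73 and 92 were above 0 at 1, 2 and 4 mo under this label.

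Below 0 at all 3 later months under the housed label and above 0 at all 3 under the grazing label was 1 of 3 members, bta-miR-29b, which kept this pattern under 6 of 10 other scalings and signals, against 13 of all 143 (9.09%), with no test. The sign of the family's mean change depended on the scaling on the housed-labelled arrays and not on the grazing-labelled ones. Averaged over the members and the 3 later months it was -0.22 under the housed label (error estimate 0.13), but 0.15 with scaling to the 75th percentile, 0.11 with the 90th percentile over the miRNAs detected on all 8 arrays and 0.16 as a share. It was 0.28 under the grazing label (0.13) and stayed between 0.07 and 0.50 over the 13 alternatives. The scalings also moved the median of all miRNAs: under the housed label, the median mean change of the 143 miRNAs detected on all 8 arrays was 0.00 as reported, and between -0.63 with no scaling and 0.38 as a share.

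Relative to that median, the mean change under the housed label was -0.46 for bta-miR-29a, -0.20 for bta-miR-29b and -0.01 for bta-miR-29c. Under the grazing label, where the median was 0.15, it was 0.03, 0.32 and 0.04 relative to it. With quantile normalization these became -0.29, -0.40 and -0.13 under the housed label and -0.14, 0.21 and -0.14 under the grazing label, so that relative to the median the sign changed for bta-miR-29a and bta-miR-29c under the grazing label. Without the 2 mo arrays, bta-miR-29a and bta-miR-29c under the grazing label also lay below the median, at -0.13 and -0.18, and bta-miR-29b 0.13 above it.

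Among the 143 miRNAs, the mean change of bta-miR-29a ranked 113 from the highest under the housed label and 62 under the grazing label, that of bta-miR-29b 96 and 19, and that of bta-miR-29c 74 and 61. At 1 mo under the grazing label the members ranked 104, 20 and 92, with bta-miR-29a and bta-miR-29c below the median of 0.25. At 2 mo they ranked 45, 19 and 31, and their changes of 0.33, 0.71 and 0.48 stood against a median of 0.01 and an upper quartile of 0.40 over all 143. At 4 mo of the same label they ranked 29, 70 and 98.

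**Figure D2:**
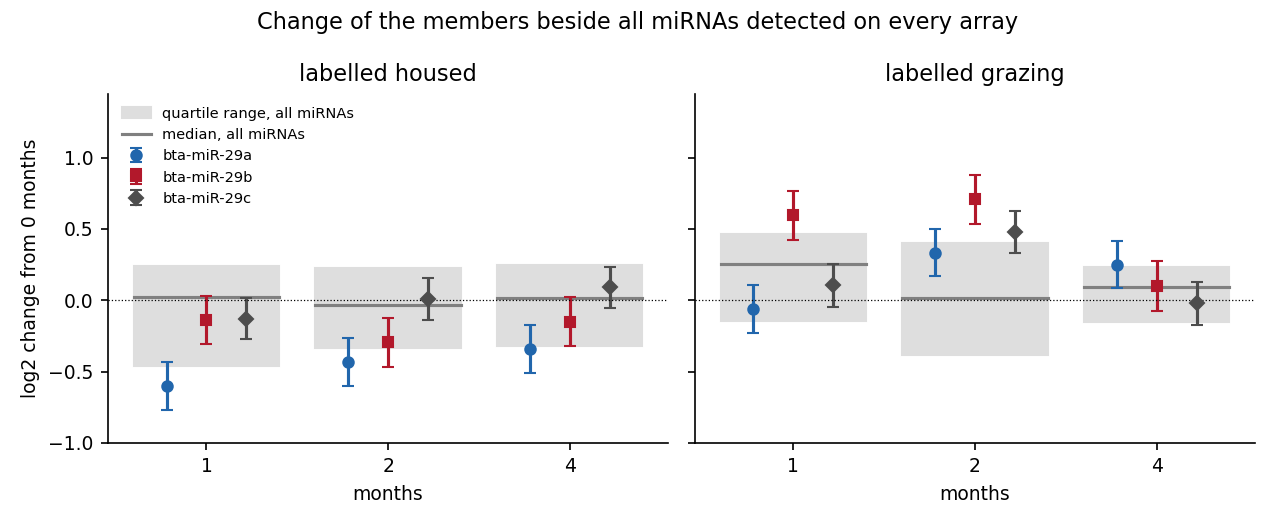
Log2 change of each member since 0 mo under the same label against months, with bars for the combined error estimate of the arrays, and in grey the range between the quartiles and the median of all 143 miRNAs detected on every array. Under the housed label, bta-miR-29a lay below the lower quartile at each month. Under the grazing label, bta-miR-29b lay above the upper quartile at 1 and 2 mo, with 0.60 and 0.71. So did bta-miR-29c at 2 mo, with 0.48, and bta-miR-29a at 4 mo, with 0.25. Of these, the changes at 1 and 2 mo kept their sign under 10 of 10 other scalings and signals. That of bta-miR-29a at 4 mo under the housed label did not, and that under the grazing label was above 0 under 9 of the 10.

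Whether the mean change differed between the labels was tested with limma on the 143 miRNAs, with month, label and the later months of the grazing-labelled arrays as terms, which left 2 residual degrees of freedom. The only spread in this fit is that between months of the same pooled animals, so it describes these pools and not other cattle. Of the members, 0 of 3 had an adjusted p under 0.05, against 2 of all 143 (1.4%), and 0 of 3 had an unadjusted p under 0.05, against 9 of 143 (6.29%). Grazing minus housed label was 0.63 for bta-miR-29a (standard error 0.39, adjusted p 0.802 from limma), and above 0 at 3 of 3 months, at 0.54, 0.77 and 0.59. For bta-miR-29b it was 0.66 (0.42, adjusted p 0.802), also above 0 at 3 of 3 months, at 0.74, 1.00 and 0.25. For bta-miR-29c it was 0.20 (0.41, adjusted p 0.961) and above 0 at 2 of 3 months, at 0.23, 0.47 and -0.11; without the 2 mo arrays it was 0.06 and without the 4 mo arrays 0.35.

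The median of this difference over all 143 was 0.15, and 89 of the 143 were above 0. By value, bta-miR-29b ranked 14 from the highest, bta-miR-29a 17 and bta-miR-29c 63. The difference was above 0 under 17 of 17 alternatives for bta-miR-29a and bta-miR-29b, and under 15 of 17 for bta-miR-29c.

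These differences rested on the 0 mo arrays. At 0 mo, the start, the scaled log2 level under the grazing label minus that under the housed label was -0.44 for bta-miR-29a, -0.50 for bta-miR-29b and -0.27 for bta-miR-29c, with error estimates of 0.17, 0.17 and 0.15. At 2 mo it was 0.33, 0.50 and 0.20. At 1 mo it was 0.10, 0.24 and -0.03, and at 4 mo 0.16, -0.25 and -0.38. The grazing-labelled array was thus the lower one for 3 of 3 members at 0 mo and the higher one for 3 of 3 at 2 mo. At 2 mo the signals with no scaling also put it higher, by 0.48, 0.65 and 0.35. How many of all 143 miRNAs had these directions at 0 and 2 mo was not counted, so they cannot be read as particular to the family. Under 10 other scalings and signals the difference at 2 mo was above 0 in 10 of 10 for each member, and that at 0 mo below 0 in 9, 10 and 9. At 1 mo it was above 0 in 5, 7 and 2 of the 10 and at 4 mo in 6, 1 and 0, so the directions at these months depended on the scaling for all but bta-miR-29c at 4 mo.

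Without the 0 mo arrays, the labels were compared over the 6 later arrays with limma, with month as a block and again 2 residual degrees of freedom. Of the members, 0 of 3 had an adjusted p under 0.05, against 16 of 143 (11.2%), and 0 of 3 an unadjusted p under 0.05, against 52 of 143 (36.4%). Grazing minus housed label was 0.20 for bta-miR-29a (standard error 0.20, adjusted p 0.507, higher at 3 of 3 months), 0.16 for bta-miR-29b (0.21, 0.600, higher at 2 of 3) and -0.07 for bta-miR-29c (0.20, 0.831, higher at 1 of 3). By size these ranked 93, 104 and 127 of 143.

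A ratio of members on the same array does not depend on any division by 1 factor per array, and its change shows whether members changed unequally. The log2 ratio of bta-miR-29b over bta-miR-29a rose from 0 mo by 0.46, 0.14 and 0.19 at 1, 2 and 4 mo under the housed label, and changed by 0.66, 0.37 and -0.15 under the grazing label, with error estimates of 0.24. At 1 mo it rose under both labels, by more than its error estimate. Quantile normalization is not such a division. With it, under the housed label, bta-miR-29b changed by -0.26, -0.43 and -0.26 and bta-miR-29a by -0.43, -0.14 and -0.05. This ratio then rose by less at 1 mo and fell at 2 and 4 mo. The ratio of bta-miR-29c over bta-miR-29a rose by 0.47, 0.44 and 0.43 under the housed label and changed by 0.17, 0.14 and -0.27 under the grazing label (error estimate 0.22). After 0 mo it thus stayed near the same level under the housed label, with bta-miR-29a lower relative to bta-miR-29c than at the start. With quantile normalization bta-miR-29c changed by -0.19, -0.04 and 0.10 under this label, so that its ratio over bta-miR-29a rose by less at each month. The ratio of bta-miR-29b over bta-miR-29c, a copy of each lying in the cluster on chromosome 16, changed by -0.01, -0.30 and -0.24 under the housed label and by 0.49, 0.23 and 0.12 under the grazing label (0.22 to 0.23).

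**Figure D3:**
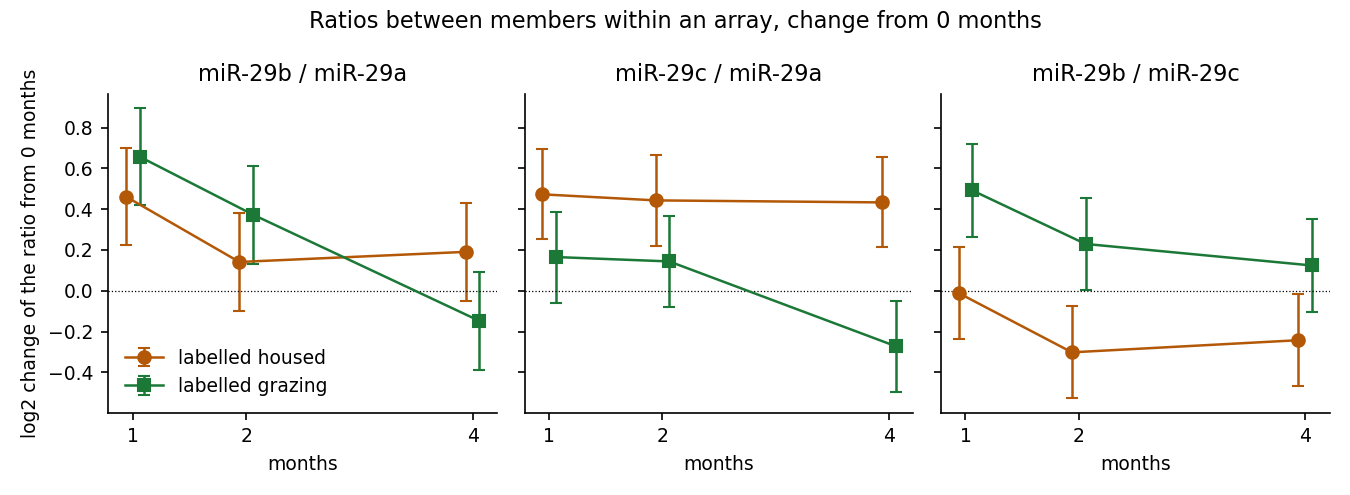
Change from 0 mo of the log2 ratio between members on the same array, against months, with bars for the combined error estimates; circles are housed-labelled arrays and squares grazing-labelled arrays. The ratio of bta-miR-29c over bta-miR-29a lay between 0.43 and 0.47 at the later months under the housed label, and lower with quantile normalization. That of bta-miR-29b over bta-miR-29c was below 0 under the housed label and above 0 under the grazing label at each later month. Its change was smaller than its error estimate at 1 mo under the housed label and at 4 mo under the grazing label.

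The probes of a member gave a second reading of each change. For bta-miR-29c the shorter and the longer probe differed by at most 0.03 in any of the 6 changes, and for bta-miR-29a by at most 0.12, with the same sign in 6 of 6 changes for each. For bta-miR-29b they differed by up to 0.24 and had the same sign in 4 of 6. At 1 mo under the housed label its shorter probe rose by 0.06 and its longer probe changed by -0.19, and at 4 mo under the grazing label the shorter changed by -0.09 and the longer by 0.14. Its rises at 1 and 2 mo under the grazing label were read by both, at 0.68 and 0.58 and at 0.57 and 0.74. Of the members' 960 spots over all arrays, 29 outliers were left out of the spot means. Among its spots, the coefficient of variation of a probe lay between 4.09% and 11.1% for bta-miR-29b, 4.69% and 7.62% for bta-miR-29a, and 3.24% and 9.83% for bta-miR-29c.

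The signal of the longer probe over that of the shorter lay between 3.92 and 4.96 for bta-miR-29b, between 3.51 and 3.88 for bta-miR-29a and between 1.15 and 1.19 for bta-miR-29c over the 8 arrays. For bta-miR-29b it was 4.69, 3.97, 4.25 and 4.29 at 0, 1, 2 and 4 mo under the housed label and 4.21, 3.92, 4.73 and 4.96 under the grazing label. The pair of probes of bta-miR-29b was thus the least steady of the 3 pairs.

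Over the 8 arrays, the log2 scaled levels of bta-miR-29b and bta-miR-29c correlated with a Pearson r of 0.67, those of bta-miR-29a and bta-miR-29c with 0.38 and those of bta-miR-29a and bta-miR-29b with 0.29. These are descriptions over 8 arrays that share the scaling, the labels and the months. With no scaling, where the arrays also share their differences in total signal, the same values were 0.97, 0.96 and 0.93. Among the 142 possible partners of bta-miR-29b, bta-miR-29c ranked 28 and bta-miR-29a 51. Among those of bta-miR-29a, bta-miR-29c ranked 29 and bta-miR-29b 36, and among those of bta-miR-29c, bta-miR-29b ranked 13 and bta-miR-29a 35.

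Of the 140 other miRNAs detected on all 8 arrays, those most like bta-miR-29a by this measure were bta-miR-2412 (r 0.80), bta-miR-2410 (0.74), bta-miR-142-5p (0.73), bta-miR-2406 (0.73) and bta-miR-2888 (0.71). Those most like bta-miR-29b were bta-miR-19b (0.92), bta-miR-874 (0.91), bta-miR-19a (0.91), bta-miR-148a (0.89) and bta-miR-222 (0.88). For bta-miR-29c they were bta-miR-22-3p (0.90), bta-miR-148a (0.86), bta-miR-19a (0.85), bta-miR-148b (0.85) and bta-miR-24-3p (0.82). The lists of bta-miR-29b and bta-miR-29c shared 2 miRNAs of 5, bta-miR-148a and bta-miR-19a, and the list of bta-miR-29a shared 0 with either. The median r over the 140 was -0.08, 0.05 and 0.06 for the 3 members.

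Other miRNAs known to act on the extracellular matrix or in fibrosis were taken as a list of 15, of which 4 were detected on all 8 arrays, 4 on some and 7 on 0. In limma's test of mean change 0 of these 4 passed, and 0 had an unadjusted p under 0.05, and at the later months 0 of 4 passed and 1 had an unadjusted p under 0.05, against 9 (6.29%) and 52 (36.4%) of all 143 unadjusted. The median difference in mean change was 0.26 over the 4 and 0.15 over all 143, beside differences of 0.63 for bta-miR-29a, 0.66 for bta-miR-29b and 0.20 for bta-miR-29c. At the later months it was -0.11 over the 4, of which 1 was above 0, and -0.01 over all 143, beside 0.20, 0.16 and -0.07 for the members. bta-miR-21-5p, which promotes fibrosis in several organs, had mean changes of -0.02 under the housed label and 0.49 under the grazing label. The other members of the 4 rose under both labels. In the same order their mean changes were 0.53 and 0.81 for bta-miR-192, 0.48 and 0.32 for bta-miR-199a-3p, and 0.06 and 0.30 for bta-miR-30c. At the later months the difference of bta-miR-21-5p was -0.12.

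Of 6 miRNAs known to repress DNA methyltransferases or Polycomb enzymes, 5 were detected on all 8 arrays and bta-miR-152 on 0. Of these, 0 of 5 passed either limma test, with 0 and 1 at an unadjusted p under 0.05 against the same shares of all 143, and a median difference of 0.25 in mean change and of -0.19 at the later months. bta-miR-148a and bta-miR-148b, which like the miR-29 family target DNA methyltransferases, had mean changes of 0.01 and 0.07 under the housed label and 0.55 and 0.44 under the grazing label, beside -0.20 and 0.47 for bta-miR-29b. Under the grazing label these mean changes were above the upper quartile of 0.33 over all 143, while the other 3 of the 5 in this list lay below it, bta-miR-26b at 0.29, bta-miR-26a at 0.16 and bta-miR-101 at 0.11, as did bta-miR-29a at 0.17 and bta-miR-29c at 0.19.

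Blood cells and tissues release miRNAs into plasma, so lists of cell type markers were read on the same arrays. The 4 red cell miRNAs, of which bta-miR-451 held the largest share, summed to 1.89%, 3.57%, 3.34% and 4.45% of the signal at 0, 1, 2 and 4 mo under the housed label and to 1.77%, 1.94%, 1.49% and 1.64% under the grazing label. Their summed scaled level correlated with bta-miR-29a, bta-miR-29b and bta-miR-29c at r of -0.51, -0.29 and 0.02 over the 8 arrays. In the comparison of the later months 2 of the 4 passed, both lower under the grazing label, against 16 of all 143 (11.2%). With quantile normalization and without the 4 mo arrays 0 of all 143 passed, and without the 2 mo arrays 0 passed as lower. In limma's test of mean change 0 of the 4 passed and 1 had an unadjusted p under 0.05, against 9 of all 143 (6.29%).

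Of the 4 platelet and myeloid miRNAs, 3 were detected on all 8 arrays and bta-miR-142-3p on 0. They summed to 6.10%, 8.98%, 6.35% and 7.94% under the housed label and 4.15%, 5.82%, 7.11% and 4.74% under the grazing label, with bta-miR-126-3p the largest, and correlated with the members at 0.04, 0.70 and 0.53. bta-miR-126-3p alone held 3.86%, 5.72%, 4.11% and 5.40% under the housed label and 2.44%, 2.79%, 2.67% and 2.81% under the grazing label. The study calls miR-126-5p endothelial-specific, so this sum may not stand for platelet and myeloid cells alone. With limma 0 of 3 passed either test, and 1 and 2 had an unadjusted p under 0.05, against 9 (6.29%) and 52 (36.4%) of all 143. The 3 did not share a direction at the later months. Grazing minus housed label was -0.58 for bta-miR-126-3p, 0.42 for bta-miR-223 and 0.46 for bta-miR-142-5p. bta-miR-142-5p of this list was also among the 5 most like bta-miR-29a.

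The 3 lymphocyte miRNAs were detected on all 8 arrays and summed to between 0.119% and 0.162%, with bta-miR-342 the largest and correlations of 0.47, 0.13 and -0.41. Of these, 1 passed at the later months, higher under the grazing label, against the same 16 of 143 (11.2%). As a share, with no scaling, with normexp and with quantile normalization, 0 miRNAs passed as higher. The same held without the 1 mo or the 4 mo arrays, and over the 231 miRNAs detected on at least 1 array. In limma's test of mean change 0 of the 3 passed and 1 had an unadjusted p under 0.05, against 9 of all 143 (6.29%). Of 7 muscle miRNAs, 0 were detected on all arrays, bta-miR-133b was detected on 2 and the others, bta-miR-1 and bta-miR-206 among them, on 0. bta-miR-486, which the study calls muscle-enriched, was counted here among the red cell miRNAs and was detected on 8 arrays. Of the liver pair, bta-miR-192 was detected on 8 arrays and bta-miR-122 on 5, and together they held at most 0.0306%, with correlations of -0.66, -0.62 and -0.40 with the members. On the grazing-labelled 1, 2 and 4 mo arrays bta-miR-122 was undetected and counted as 0. The sum there was that of bta-miR-192 alone, at low signals of 7.61, 8.26 and 8.01, so these correlations partly follow where bta-miR-122 was detected. The part of any of these cells in the changes of the members was not tested.

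The longest probes of bta-miR-29a, bta-miR-29b and bta-miR-29c had GC shares of 45%, 38.1% and 36.4%. Among the 143 miRNAs, the mean change differed with the GC share of the probe: its median was 0.12 under the housed label and 0.24 under the grazing label for the 23 below 40%, 0.10 and 0.27 for the 32 from 40% to under 50%, 0.07 and 0.19 for the 36 from 50% to under 60%, and -0.39 and -0.38 for the 52 of 60% or more. bta-miR-29a at -0.46 was below the median of its own range of GC shares under the housed label, 0.10. Under the grazing label bta-miR-29b at 0.47 was above that of its range, 0.24. The spread within these ranges was not computed. The difference between the labels varied less with GC share, with medians of 0.17, 0.19, 0.16 and 0.07 in these groups, and the part of base composition in the members' changes was not tested.

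Relative to let-7g, the study's normalizer for single miRNAs, the log2 ratio of bta-miR-29a changed by -0.75, -0.59 and -0.58 at 1, 2 and 4 mo under the housed label and by -0.23, 0.37 and 0.17 under the grazing label. That of bta-miR-29b changed by -0.29, -0.45 and -0.39 and by 0.43, 0.74 and 0.02, and that of bta-miR-29c by -0.28, -0.15 and -0.15 and by -0.07, 0.51 and -0.10. The error estimates lay between 0.21 and 0.23. Scaled to let-7g, the median mean change of all 143 miRNAs was -0.18 under the housed label and 0.07 under the grazing label. Against the first of these the mean changes were -0.64, -0.38 and -0.19, so that bta-miR-29c lay near the median of all miRNAs, and its changes at 2 and 4 mo under the housed label were smaller than their error estimate.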

How the data were processed

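The authors hybridized pooled plasma exosomal RNA of 3 steers to 1 array for each feeding group and month and read the arrays with version 10.7.3.1 of Agilent's Feature Extraction. Its deposited files give intensity values, background-subtracted but not normalized between arrays, and other values that are flags of 0 or 1. In the table that the authors deposited for the whole series each value is a ratio, the raw signal over 1 factor per array, linear and not centred, used here as an alternative. The medians of its columns, 0.000664, 0.000926, 0.00149 and 0.000915 under the housed label and 0.00187, 0.00257, 0.00135 and 0.00241 under the grazing label, are the value given to undetected miRNAs, and the set of values behind its factors stays unknown. Of its columns 8 were used.

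Total gene signals were divided by the 90th percentile of the array over all 744 miRNAs. Undetected values, and detected ones below it, were set to a floor of 0.114, which 0 members reached, and log2 was taken. limma 3.58.1 in R 4.3.3 tested the 143 miRNAs found on every array, with Benjamini-Hochberg adjustment over all of them at 0.05, after tests on simulated data. Python 3.11.15, numpy 2.4.6 and pandas 2.3.3 gave the other values. With no repeated array, the only error given is the estimate of the scanner software.

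The miRNAs named are the members, the other miR-29 entries, the 5 with the highest Pearson r with each member, at most 5 of each list with values, and let-7g. In the lists, other names were given to tell which entries were largest or undetected. The members and lists were chosen with earlier results of these data known. Alternatives were 7 other scalings, 3 other signals, leaving out each later month, another filter, eBayes with trend and single probes. Probe positions are those of the array design, and mature sequences, qRT-PCR values and target predictions are not analysed here.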

Additional observations from a re-analysis of the deposited data

Results flagged for a closer look

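bta-miR-29b lay below its 0 mo level at each of the 3 later months on the housed-labelled arrays, by changes of -0.14, -0.29 and -0.15, and above it at each on the grazing-labelled ones, by 0.60, 0.71 and 0.10. The mean change under the grazing label minus that under the housed label was 0.66, and limma's test of this difference gave an adjusted p of 0.802. Of all 143 miRNAs, 13 (9.09%) had this pattern, and 0 had the opposite one. bta-miR-29b had it under 6 of 10 other scalings and signals, bta-miR-29a under 3 and bta-miR-29c under 0. The shorter probe of bta-miR-29b did not have it, with changes of 0.06 at 1 mo under the housed label and -0.09 at 4 mo under the grazing label. The change at 4 mo under the grazing label, 0.10, and those at 1 and 4 mo under the housed label were smaller than their error estimates of 0.17.

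The log2 ratio of bta-miR-29b over bta-miR-29c changed by -0.01, -0.30 and -0.24 under the housed label and 0.49, 0.23 and 0.12 under the grazing label, of which -0.01 and 0.12 were smaller than their error estimates of 0.22 and 0.23. On the shorter probes both of these had the other sign, bta-miR-29b changing by 0.06 and bta-miR-29c by -0.15 at 1 mo under the housed label, and by -0.09 and -0.02 at 4 mo under the grazing label. The mean change under the grazing label minus that under the housed label was 0.47, which is 1.79 times its error estimate of 0.26. This difference was not tested. By the supplementary table and the text of the study the groups of both results are exchanged.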

How the results depend on the processing

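The difference in mean change of bta-miR-29a and bta-miR-29b stayed above 0 under each of 17 alternatives, between 0.16 and 1.21 and between 0.23 and 1.24, and that of bta-miR-29c under 15. The adjusted p from limma lay between 0.291 and 0.999, 0.563 and 0.999, and 0.744 and 1. bta-miR-29c gave -0.24 with the 90th percentile over the miRNAs detected on all arrays and -0.13 as a share. The difference at the later months changed sign more often. For bta-miR-29a it was -0.086 as a share, -0.65 with no scaling and -0.068 with normexp, and for bta-miR-29b -0.12, -0.68 and -0.075 with these, -0.029 with the 75th percentile and -0.0049 without the 2 mo arrays. For bta-miR-29c it was 0.26 scaled to let-7g and 0.085 without the 4 mo arrays. Over the 3 members in turn, the adjusted p at the later months lay between 0.0697 and 0.989, 0.140 and 0.988, and 0.181 and 1. The family's mean change under the housed label was 0.15 with the 75th percentile, 0.11 with the 90th percentile over detected miRNAs, 0.16 as a share, -0.40 scaled to let-7g and -0.85 with no scaling; under the grazing label it was 0.50 with the 75th percentile and 0.075 with quantile normalization. Why the scalings differ was not tested. In the test of mean change 2 miRNAs passed, and 2 with eBayes with trend, 14 of the 231 detected on at least 1 array, each with no residual spread, 2 with the longer and 0 with the shorter probe of each member, and 0 under the other 13 alternatives. At the later months 16 passed, and 5 with the 75th percentile, 29 with the 90th percentile over detected miRNAs, 3 as a share, 33 scaled to let-7g, 0 with quantile normalization, 3 with no scaling, 8 with mean spot signals, 8 with the series table, 1, 2 and 0 without the 1, 2 and 4 mo arrays, 1 with the wider filter and 32 with trend. Higher under the grazing label were 9 of the 16, 31 of the 33, 7 of the 29, and 0 of the 11 with normexp. No member passed under any alternative. Unadjusted, limma gave bta-miR-29a a p of 0.0252 for the difference in mean change with the wider filter. At the later months scaled to let-7g its unadjusted p from limma was 0.0175. Fits without a month have 1 residual degree of freedom. With 1 array per pool, differences between animals are not measured.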
